A study of Rattus norvegicus with 6 samples.

Results

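Developmental patterning transcription factors were followed in the vestibular epithelium of rats exposed to 3,3'-iminodipropionitrile (IDPN), a nitrile that damages vestibular hair cells (HCs). The members were all genes whose symbol joins a number to the family name Pax, Dlx, Irx, Lhx, Nkx, Gata, Otx, Msx, Meis, Pbx, Tbx, Emx, Gbx, Hmx or Sox, or to that of Six2 and Six4. Lhx3, Sox2 and Sox10 were left out. The pattern matched 102 of the 32883 genes in the count table, and 99 remained as members. Dlx6, Sox1, Sox3 and Sox4 were not analysed here. The animals were adult male Long-Evans rats: 3 control rats drank plain water and 3 rats drank water with 20 mM IDPN for 4 weeks (IDPN-4wk). Both utricles and all cristae of an animal, 2 and 6 organs, were pooled into 1 library made from 6 to 11 ng of total RNA, so that a library is an animal. Libraries held from 13358678 to 18561991 counts.

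These families build body parts in the embryo. Many of their genes act in the otic placode and the otocyst, the thickened ectoderm and the vesicle from which the whole inner ear forms: Pax2, Pax8, Gata3, Dlx5, Hmx2 and Hmx3, Gbx2, Otx1, Tbx1 and Emx2 are known from mutants with malformed ears. They bind DNA through a homeodomain, a paired domain, a T-box, an HMG box or zinc fingers, and several of them remain expressed in the adult organ, where the same sample also holds connective tissue, nerve, pigment cells and vessels.

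Of the 99 members, 44 passed the filter on low counts and were tested, 31 had counts below the filter and 24 had 0 counts in all 6 libraries. Between IDPN-4wk and control animals, 3 members changed: Gata3 and Irx6 were downregulated and Tbx1 was upregulated. A change here means an adjusted p (Padj) under 0.05 in the quasi-likelihood test of edgeR and a fold change over 1.5. That was 6.82% of the tested members, against 9.71% of the 14352 genes tested. The share lower in IDPN-4wk was 4.55% of members against 6.62% of all genes, and the share higher was 2.27% against 3.09%. Over all genes, 950 were lower and 444 higher. That split depended on the scaling, and with library size alone it was 780 lower and 762 higher. The share of changed genes among the members was not above that of the table as a whole. The log2-Fold change was under 0 in 23 and over 0 in 21 of the tested members, with a median of -0.03 against 0.02 for all genes tested. The quartiles were -0.31 and 0.25 for the members and -0.21 and 0.21 for all genes. From the counts of these bulk samples alone, fewer cells of a type and less RNA per cell cannot be told apart. For HCs, the authors counted cells in separate rats at this exposure, and losses were limited to parts of the crista. They calculated that the sequenced samples had lost few HCs.

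**Figure D1:**
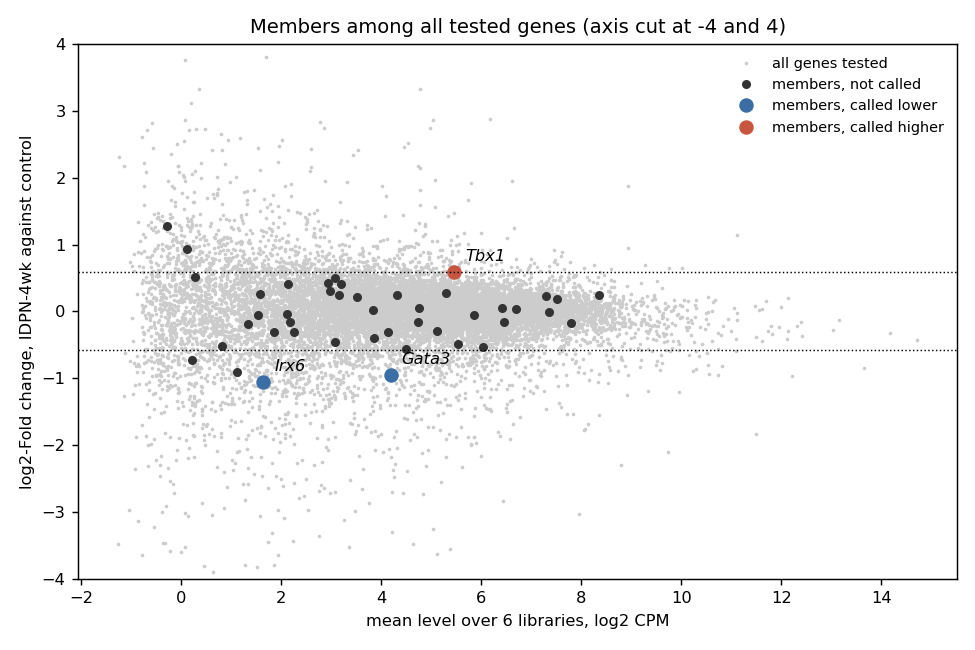
log2-Fold change of IDPN-4wk against control (vertical axis, shown from -4 to 4) against the mean level over the 6 libraries in log2 CPM (counts scaled to library size, horizontal axis), for all tested genes (grey points) and the 44 tested members (dark and coloured points); dotted lines mark a 1.5-fold change. Gata3 and Irx6 lie under the lower line and Tbx1 on the upper line, while most members lie between the lines.

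Gata3 (ENSRNOG00000019336) encodes a zinc finger factor that is needed for the otic vesicle and its innervation and that remains expressed in vestibular sensory organs. Its level was 24.8, 23.6 and 23.9 CPM in the control and 12.4, 15.2 and 9.59 CPM in the IDPN-4wk libraries, where CPM are counts scaled to the effective library size. Every IDPN-4wk library was below every control library, and the control values lay close together. The mean fell from 24.1 ± 0.648 to 12.4 ± 2.79 CPM (± SD, n = 3 each), a log2-Fold change of -0.95 with an SE of 0.16 (edgeR Padj 0.00225), which left 51.4% of the control level. For the fold change, IDPN-4wk over control, the 95% interval was from 0.404 to 0.659.

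Gata2, the only other GATA gene past the filter, did not pass the test. Its level was 168, 173 and 176 CPM in the control and 197, 214 and 175 CPM in the IDPN-4wk libraries. The groups overlapped and the fold change was 1.13 (95% interval 0.999 to 1.28, edgeR Padj 0.153). Within each library, the counts of Gata3 divided by those of Gata2 do not depend on the scaling of that library. This ratio was 0.147, 0.136 and 0.136 in the control and 0.0629, 0.0708 and 0.0547 in the IDPN-4wk libraries, so that the groups did not overlap. The log2 ratio differed by -1.16 (two-sided exact permutation test p = 0.1, the smallest that 3 against 3 libraries allow). Gata5 had no more than 5 counts in any library, and Gata1, Gata4 and Gata6 had none.

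The difference in Gata3 passed both thresholds whichever library was left out, with log2-Fold changes from -1.14 to -0.81 and edgeR Padj from 0.00129 to 0.0118. It did not pass glmTreat of edgeR, in which a gene must exceed 1.5-fold beyond its error (Padj 0.121). The same test left 0 of the 44 members past the threshold.

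**Figure D2:**
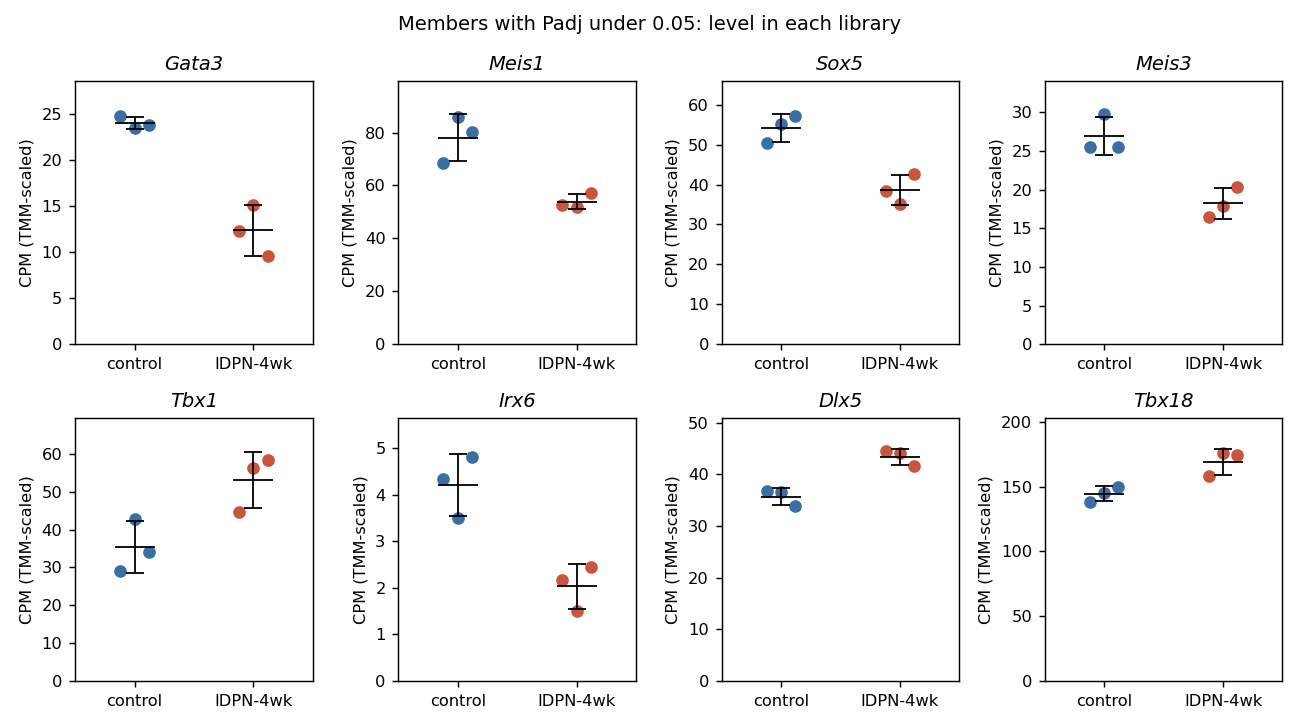
Level in CPM (vertical axes, starting at 0) of the 8 members with Padj under 0.05 in each control (blue) and IDPN-4wk (red) library, with the mean and SD of each group as a bar with whiskers (n = 3 each). The 8 were picked by Padj, and their groups do not overlap, as in 37.8% of all tested genes. Gata3 and Irx6 show the lowest IDPN-4wk mean relative to control, 51.4% and 48.3%.

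Markers of HCs and of supporting cells differed between the same libraries. Of 10 HC markers, 6 were lower and 0 higher in IDPN-4wk, and their summed level was from 2236 to 2361 CPM in control and from 1175 to 1501 CPM in IDPN-4wk libraries. Of 9 supporting cell markers, 4 were lower and 0 higher, and their summed level was from 13483 to 15168 CPM in control and from 7305 to 9033 CPM in IDPN-4wk libraries. The 4 lower genes, Otog, Otoa, Sparcl1 and Gjb6, made up most of that sum, and the other 5, which did not pass, summed to between 1302 and 1440 CPM in control and to between 1054 and 1208 CPM in IDPN-4wk libraries. No marker of either list was at 0. Of 7 dark cell and melanocyte markers tested, 3 were lower (Kcnq1, Atp1b2 and Slc12a2) and 0 higher. The 7 together summed to values from 1935 to 2507 CPM in control and from 1380 to 1531 CPM in IDPN-4wk libraries. The other 4, Tyr, Mlana, Pmel and Kcne1, did not pass. Their sum was from 515 to 661 CPM in control and from 453 to 497 CPM in IDPN-4wk libraries. The part of these cells in the difference of Gata3 was not tested.

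The T-box factors gave the only upregulated member. Tbx1 (ENSRNOG00000001892) acts in the otocyst, where it limits the neurogenic field and is required for the vestibular organs and canals, and in the mesenchyme around it. Its level was 29.1, 42.8 and 34.0 CPM in the control and 44.6, 56.3 and 58.4 CPM in the IDPN-4wk libraries. The groups did not overlap, but control 2 and IDPN-4wk 1 differed by less than the spread within either group. The mean rose from 35.3 ± 6.91 to 53.1 ± 7.40 CPM (± SD, n = 3 each), a log2-Fold change of 0.59 with an SE of 0.15 (edgeR Padj 0.0168). This fold change of 1.51 (95% interval 1.21 to 1.88) sits on the threshold of 1.5, which is 0.585 on the log2 scale. DESeq2 and its size factors gave 0.58, under the fold threshold. Without control 1, control 3, IDPN-4wk 2 or IDPN-4wk 3, Tbx1 no longer passed both thresholds (log2-Fold change 0.47, 0.56, 0.55 and 0.51, edgeR Padj 0.0534, 0.0625, 0.0577 and 0.0449).

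Tbx18 is known from the fibrocytes around the otic capsule, where it keeps the mesenchymal compartments apart. Its level was 138, 145 and 150 CPM in the control and 158, 176 and 174 CPM in the IDPN-4wk libraries, with no overlap. The difference was small and its Padj lay at the threshold (fold change 1.17, 95% interval 1.05 to 1.31, edgeR Padj 0.0494). The Padj was over 0.05 with the size factors of DESeq2 (0.0564), without the count filter (0.0610), in DESeq2 itself (0.0528) and whichever library was left out (0.0590 to 0.151). The ratio of Tbx1 to Tbx18 counts in a library was 0.210, 0.295 and 0.227 in the control and 0.283, 0.320 and 0.335 in the IDPN-4wk libraries, and the groups overlapped (two-sided exact permutation test p = 0.2).

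Tbx3, a repressor of the T-box family, averaged 102 ± 4.92 CPM in the controls and 105 ± 10.4 CPM in the IDPN-4wk rats (SD, n = 3 each). Its 95% interval reached only from 0.903 to 1.17. For its relative Tbx2, the level was 5.29, 8.74 and 7.08 CPM in the control and 11.6, 8.77 and 9.40 CPM in the IDPN-4wk libraries. These values did not overlap, by a gap of hardly any size between control 2 and IDPN-4wk 2, and the difference did not pass the test (fold change 1.41, 95% interval 1.01 to 1.96, edgeR Padj 0.136). Tbx15, a mesenchymal factor, and Tbx19, known from the pituitary, were measured at a few CPM and had intervals from 0.762 to 1.89 and from 0.533 to 1.44.

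**Figure D3:**
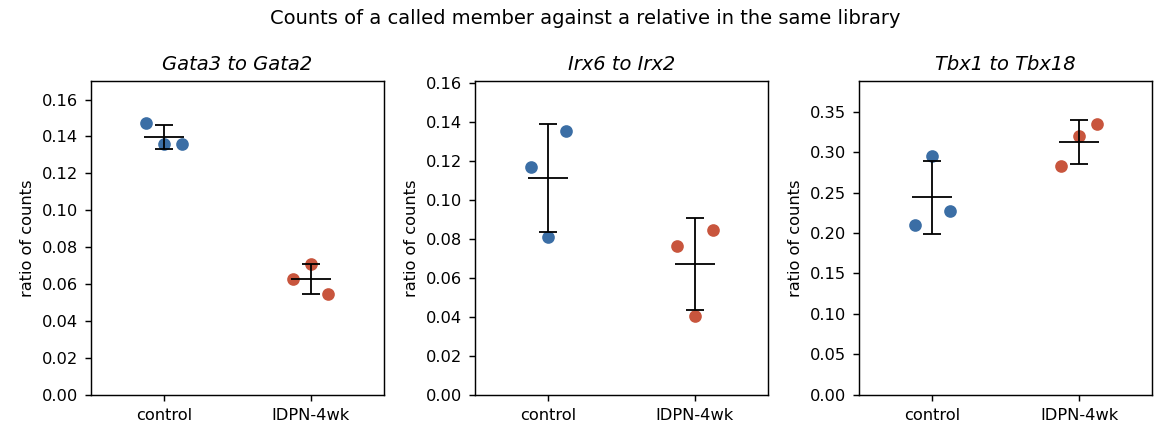
Counts of Gata3, Irx6 and Tbx1 divided by the counts of a relative in the same library (vertical axes, starting at 0), Gata2, Irx2 and Tbx18 in that order, in control (blue) and IDPN-4wk (red) libraries with mean and SD (n = 3 each). The Gata3 to Gata2 ratio is from 0.136 to 0.147 in control and from 0.0547 to 0.0708 in IDPN-4wk libraries, while the groups overlap in the other panels.

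Irx6 (ENSRNOG00000011037) was the third member that changed. The Iroquois homeobox genes lie in clusters and take part in the regional patterning of neural and other ectoderm. Irx6 had 67, 50 and 68 counts in the control and 30, 29 and 38 counts in the IDPN-4wk libraries, equal to 4.33, 3.49 and 4.81 CPM and to 2.16, 1.496 and 2.45 CPM. All IDPN-4wk libraries were below all control libraries. The mean fell from 4.21 ± 0.667 to 2.03 ± 0.487 CPM (± SD, n = 3 each), a log2-Fold change of -1.06 with an SE of 0.29 (edgeR Padj 0.0290). At these counts the 95% interval of the fold change was wide, from 0.306 to 0.753. The Padj rose to 0.0751, 0.102, 0.0701 and 0.1002 without control 1, control 3, IDPN-4wk 1 and IDPN-4wk 2, and Irx6 then no longer passed.

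The neighbours of Irx6 in its cluster did not pass the test. Irx5, which lies beside Irx6 in the rat gene order, was at 6.26, 6.43 and 7.01 CPM in the control and 6.40, 10.0 and 9.85 CPM in the IDPN-4wk libraries. The groups overlapped, and the log2-Fold change was 0.42 (edgeR Padj 0.196) where that of Irx6 was -1.06. For Irx3, on the other side of Irx5, the log2-Fold change was -0.16 (edgeR Padj 0.742). In the other cluster, Irx2 was at 37.0, 43.1 and 35.5 CPM in the control and 28.1, 36.9 and 28.9 CPM in the IDPN-4wk libraries. Its groups overlapped (fold change 0.815, 95% interval 0.670 to 0.991, edgeR Padj 0.134), and Irx1 gave a similar value with a wider interval (0.809, 0.533 to 1.23). Irx4 reached at most 15 counts and was not tested. The ratio of Irx6 to Irx2 counts overlapped between the groups (log2 difference -0.76, two-sided exact permutation test p = 0.2). Of the 6 neighbouring pairs of members with both genes tested, the Irx6 and Irx5 pair was the only pair that held a changed gene.

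Without the fold threshold, 8 of the 44 members (18.2%) had a Padj under 0.05, where 19.4% of all tested genes had one. Of these, 5 were lower (11.4% of members, 11.5% of all genes) and 3 were higher (6.82% of members, 7.89% of all genes). Besides the 3 above and Tbx18, these were Meis1, Meis3, Sox5 and Dlx5, whose fold changes were under 1.5.

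The Meis and Pbx genes encode homeodomain proteins of the TALE class, which bind DNA together with each other and with Hox proteins. Meis1 was at 68.4, 85.8 and 80.1 CPM in the control and 52.6, 51.7 and 57.2 CPM in the IDPN-4wk libraries. The groups were well apart, and the difference had the second smallest Padj of the members (log2-Fold change -0.54 ± 0.10 SE, edgeR Padj 0.00327; 68.9% of the control level). For Meis3, the values were 25.4, 29.7 and 25.6 CPM in control and 16.4, 17.9 and 20.3 CPM in IDPN-4wk libraries. They did not overlap either (log2-Fold change -0.56 ± 0.13 SE, edgeR Padj 0.0106). Meis2, in contrast, had libraries from 57.9 to 61.6 CPM in control and from 53.1 to 63.2 CPM in IDPN-4wk, with a fold change of 0.964 (95% interval 0.842 to 1.10). Whether the Meis genes differ from one another in their change was not tested. The fold change of Meis1 passed 1.5 without control 1 or IDPN-4wk 3 (log2-Fold change -0.62 and -0.59), and that of Meis3 without control 1, control 3 or IDPN-4wk 3 (-0.60, -0.60 and -0.66).

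In the Pbx family, Pbx2 and Pbx3 had libraries that did not overlap between the groups, and the differences did not pass the test. Pbx3 was at 17.0, 17.2 and 15.1 CPM in the control and 12.3, 10.8 and 14.5 CPM in the IDPN-4wk libraries, lower in each of the latter (log2-Fold change -0.40, edgeR Padj 0.0852). Pbx2 was higher in each, with 8.46, 6.43 and 8.92 CPM in the control and 9.99, 10.7 and 10.8 CPM in the IDPN-4wk libraries (0.40, edgeR Padj 0.137). Groups without overlap were frequent in this table: they were found in 16 of the 44 members (36.4%) and in 37.8% of all tested genes.

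**Figure D4:**
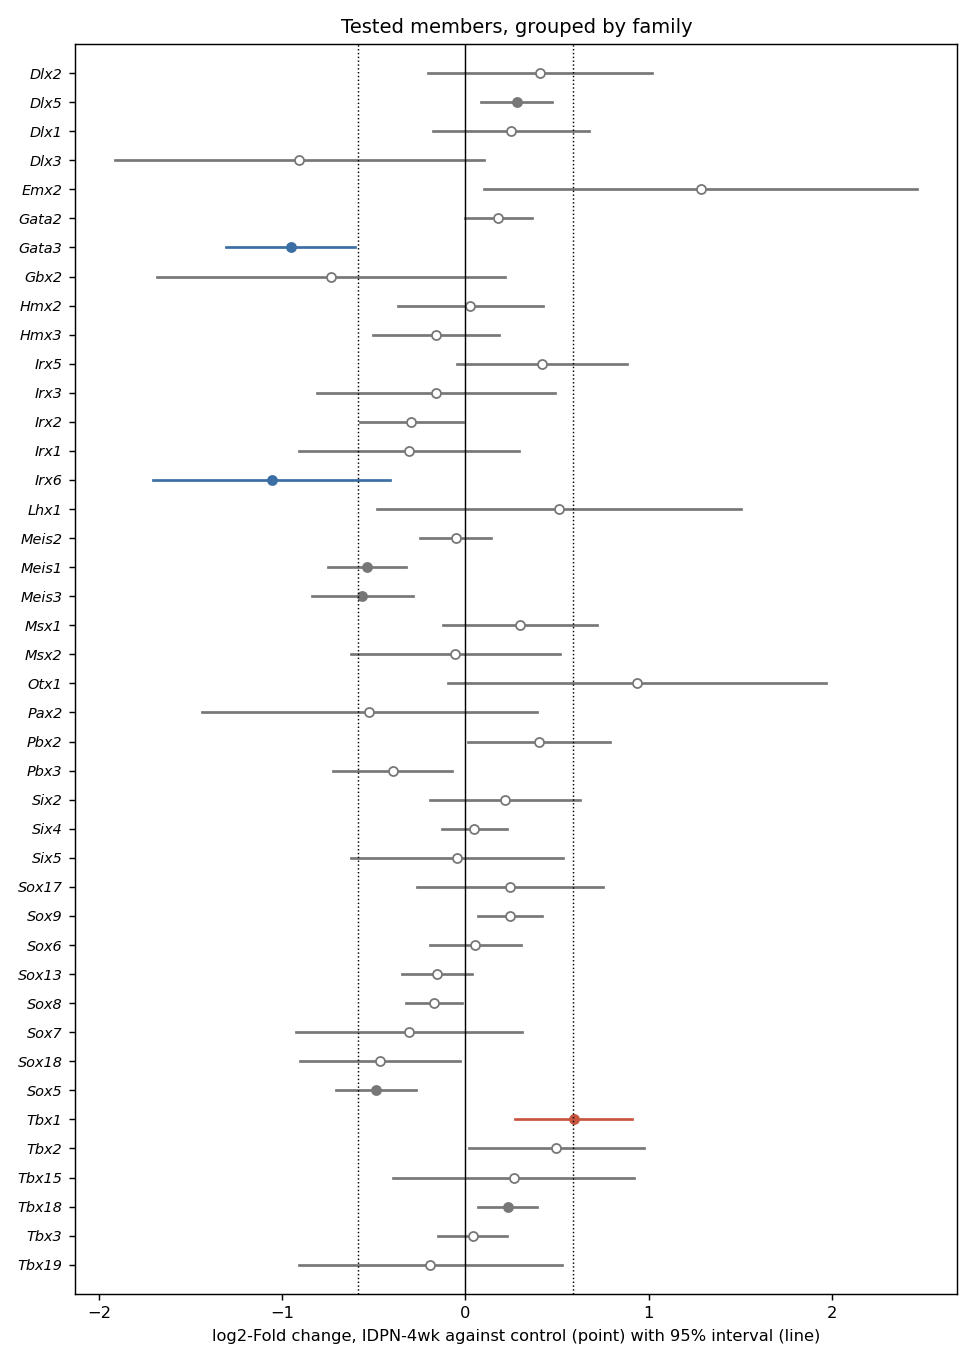
log2-Fold change of IDPN-4wk against control (horizontal axis) with its 95% interval for 42 of the 44 tested members, ordered by family and then by value; filled points have Padj under 0.05, blue and red mark members that also passed the 1.5-fold threshold (dotted lines). Gata3 is the only member shown whose whole interval lies beyond a 1.5-fold change, and the intervals of Emx2, Otx1, Dlx3, Gbx2 and Lhx1 are the widest among those shown as open points with few counts.

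Sox proteins bind DNA through an HMG box. Sox5, Sox6 and Sox13 form the SoxD group, of which Sox5 and Sox6 are known from cartilage. Sox5 was at 50.4, 55.1 and 57.3 CPM in the control and 38.3, 35.1 and 42.7 CPM in the IDPN-4wk libraries. The groups were apart, and the level in IDPN-4wk was 71.3% of that in control (log2-Fold change -0.49 ± 0.10 SE, edgeR Padj 0.00602). Sox6 had a fold change of 1.04 (95% interval 0.874 to 1.23) and Sox13 of 0.898 (0.786 to 1.02), and their groups overlapped.

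Sox9 and Sox8 belong to the SoxE group. Sox9 acts early in the otic placode and in cartilage and is found in supporting cells and fibrocytes of the ear. Its libraries held 284, 299 and 317 CPM in control and 346, 385 and 334 CPM in IDPN-4wk. All IDPN-4wk libraries were above all control libraries, and the Padj lay at the threshold (fold change 1.18, 95% interval 1.05 to 1.34, edgeR Padj 0.0540). It was under 0.05 with library size alone (0.0104), upper quartile scaling (0.0320), DESeq2 (0.0321) and without IDPN-4wk 3 (0.0405), and from 0.0791 to 0.182 when another library was left out. Sox8, known from glia and neural crest, was at 235, 224 and 246 CPM in the control and 208, 205 and 214 CPM in the IDPN-4wk libraries (fold change 0.888, 95% interval 0.800 to 0.987, edgeR Padj 0.108). Of 7 Schwann cell markers, 2 were lower and 0 higher, and their summed level was from 7412 to 9587 CPM in control and from 4998 to 7651 CPM in IDPN-4wk libraries. Their part in the value of Sox8 was not tested.

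Sox7, Sox17 and Sox18 form the SoxF group, known from endothelium. Sox18 was at 7.43, 11.5 and 10.4 CPM in the control and 7.05, 6.81 and 7.40 CPM in the IDPN-4wk libraries. The groups were separated by a small gap at control 1, and Sox18 did not pass the test (log2-Fold change -0.46, edgeR Padj 0.129), except without that library (-0.63, edgeR Padj 0.0494). Sox7 (-0.31) and Sox17 (0.24) overlapped between groups. The 5 endothelial markers tested summed to between 367 and 507 CPM in control and to between 331 and 382 CPM in IDPN-4wk libraries, with 1 lower and 0 higher. Their part was not tested. In the whole list of vessel and blood cell members, 4 of 9 were tested and 0 changed, with a median of -0.06.

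Dlx5, a Distal-less homeobox gene needed for the semicircular canals, was at 36.7, 36.6 and 33.8 CPM in the control and 44.4, 44.1 and 41.5 CPM in the IDPN-4wk libraries. The replicates were tight and the groups apart, with a fold change of 1.21 (95% interval 1.06 to 1.39, edgeR Padj 0.0465). Dlx1 and Dlx2, which lie side by side, had log2-Fold changes of 0.25 and 0.41 and did not pass the test. Dlx3 ranged from 1.29 to 3.61 CPM in control and from 0.837 to 1.91 CPM in IDPN-4wk libraries, with overlap (-0.91, edgeR Padj 0.196). The Padj of Dlx5 was over 0.05 whichever library was left out (0.0558 to 0.156), with the size factors of DESeq2 (0.0515), without the count filter (0.0662) and in DESeq2 (0.0889).

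For a few members the measured difference was small and its interval narrow. Six4 encodes a homeodomain protein that works with Eya coactivators. Its level was 81.4, 78.8 and 92.5 CPM in the control and 87.7, 84.0 and 89.9 CPM in the IDPN-4wk libraries, overlapping between the groups (fold change 1.04, 95% interval 0.914 to 1.17). The intervals of Six4, Tbx3, Meis2 and Sox6 all lay between 0.842 and 1.23. In 14 of the 44 tested members the interval lay inside 1.5-fold in either direction. In 27 members that were not called changed it reached past 1.5-fold, so that a change of that size lay within their error. The intervals of Six2 and Six5 were wider, with fold changes of 1.16 (0.874 to 1.54) and 0.970 (0.650 to 1.45).

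Hmx2 and Hmx3, neighbouring homeobox genes required for the vestibular labyrinth, overlapped between groups. Hmx3 was at 26.7, 28.2 and 30.1 CPM in the control and 22.6, 32.1 and 20.9 CPM in the IDPN-4wk libraries (fold change 0.893, 95% interval 0.704 to 1.13), and Hmx2 had a fold change of 1.02 (0.774 to 1.34). In both genes IDPN-4wk 2 was the highest of all libraries and IDPN-4wk 3 the lowest. Msx1 (fold change 1.23, 0.919 to 1.65) and Msx2 (0.963, 0.650 to 1.43), homeobox targets of BMP signalling, did not pass the test.

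Several otic genes, and Lhx1 from the nervous system list, were near the limit of detection. Pax2, a marker of the otic placode, had 40, 31 and 22 counts in the control and 11, 42 and 21 counts in the IDPN-4wk libraries, with overlap (log2-Fold change -0.52, edgeR Padj 0.415). Emx2, which sets the orientation of the HC bundles on 1 side of the line of polarity reversal, had 5, 12 and 4 counts in control and 14, 32 and 13 counts in IDPN-4wk libraries. In CPM, control 2 with 0.839 reached the lowest IDPN-4wk library with 0.837 (log2-Fold change 1.28 ± 0.54 SE, edgeR Padj 0.121). Without control 2 the log2-Fold change was 1.93 (edgeR Padj 0.0724). Otx1, needed for the lateral canal and its crista, had 13, 5 and 15 against 15, 36 and 21 counts (0.94, edgeR Padj 0.192). Gbx2, a gene of the endolymphatic system, ranged from 1.03 to 1.75 CPM in control and from 0.575 to 1.24 CPM in IDPN-4wk libraries (-0.73, edgeR Padj 0.267). Lhx1, the only tested LIM-homeobox member, had overlapping groups (0.51, edgeR Padj 0.469). The 95% intervals of the fold changes were wide: from 0.369 to 1.31 for Pax2, 1.07 to 5.53 for Emx2, 0.936 to 3.91 for Otx1, 0.312 to 1.16 for Gbx2 and 0.717 to 2.84 for Lhx1.

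Of the 27 otic genes listed, 21 were tested. Gata3 was lower and Tbx1 higher, which is 9.52% of the tested list beside 9.71% of all tested genes, and the median log2-Fold change of the list was 0.04. Pax8, Otx2, Sox11 and Sox21 did not pass the filter. Otx2 had 4, 2 and 1 counts in control and 6, 13 and 10 counts in IDPN-4wk libraries. Sox21 is annotated as a pseudogene in the count table. Of 16 members known from mesenchyme, 6 were tested and 0 changed, with a median of 0.13, and 7 had 0 counts in all libraries. Of 9 mesenchymal markers, Lum was lower and Col1a1 higher. Coch, a fibrocyte gene, carried most of their summed level, with 19074 to 22263 CPM in control and 15002 to 17941 CPM in IDPN-4wk libraries. The other 8 summed to between 1002 and 1163 CPM in control and to between 959 and 1048 CPM in IDPN-4wk libraries, and the part of these cells in the values of the members was not tested. Among 16 members known from the nervous system and neural crest, 4 were tested and 0 changed, with a median of 0.33. Of 6 neuronal markers tested, 1 was lower and 2 were higher.

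**Figure D5:**
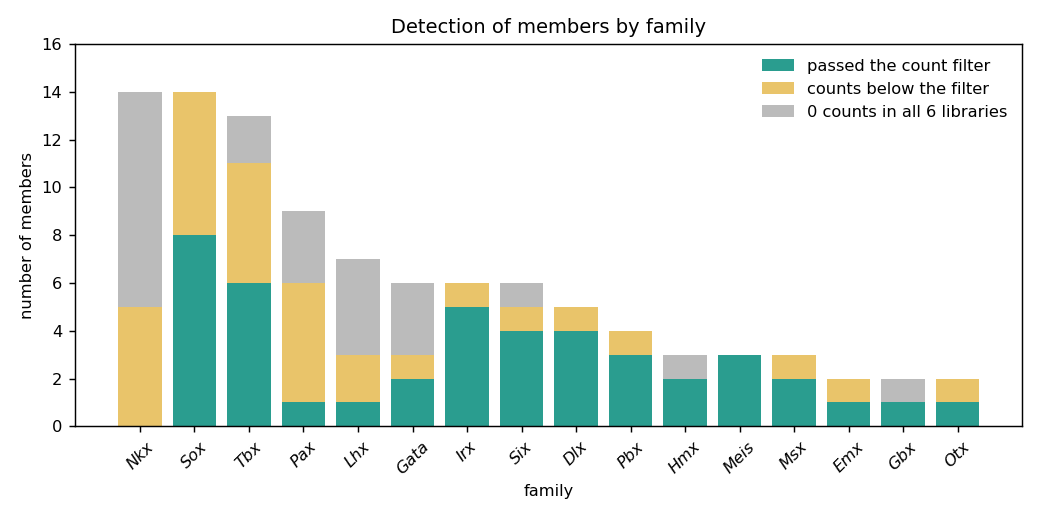
Number of members (vertical axis) in each of the 16 families (horizontal axis) that passed the count filter, had counts below it, or had 0 counts in all 6 libraries. No Nkx gene and 1 of 9 Pax genes passed, while all 3 Meis genes passed.

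The families differed in how many of their genes were measurable. All 3 Meis genes, 5 of 6 Irx, 3 of 4 Pbx, 4 of 5 Dlx, 8 of 14 Sox and 6 of 13 Tbx genes passed the filter. In contrast, 0 of 14 Nkx, 1 of 9 Pax and 1 of 7 Lhx genes passed. Among the Nkx genes, which pattern the forebrain, heart, gut, skeleton and pancreas, 9 had no count and the highest value was 25 counts of Nkx6-1 in a library. The members at 0 in every library included Gata1, Gata4, Gata6, Gbx1, Hmx1, Lhx2, Lhx4, Lhx5, Lhx8, Nkx1-1, Nkx2-1, Nkx2-3, Nkx2-4, Nkx2-5, Nkx2-6, Nkx2-8, Nkx3-2, Pax1, Pax5, Pax6, Six6, Tbx5 and Tbx20. These genes were not detectable at this depth: where 0 was counted, a level of 3 counts remains possible, equal to between 0.155 and 0.216 CPM over the libraries.

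The number of members with at least 1 count was from 62 to 65 in each library of both groups. In 36 of the 55 untested members no library had more than 3 counts. Of the rest, 6 had 3 counts or fewer in every library of the control group but not of the IDPN-4wk group. Msx3 had 0, 0 and 1 counts in control and 2, 4 and 8 counts in IDPN-4wk libraries. Tbx6 had 2, 0 and 1 against 5, 7 and 2 counts. Emx1 had 0, 3 and 0 against 0, 6 and 1, Nkx6-2 had 3, 0 and 3 against 2, 5 and 0, Pax9 had 1, 0 and 1 against 4, 0 and 0, and Sox12 had 3, 1 and 2 against 8, 2 and 2 counts. None of the untested members passed both thresholds when the filter was left out.

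Partners and cofactors of these families were examined as the other genes of the network. Of 40 listed, 32 were tested, with a median log2-Fold change of -0.07. Of these, 5 were downregulated (15.6%, against 6.62% of all tested genes) and 1 was upregulated (3.12% against 3.09%). With library size alone, 3 were lower and 1 was higher, where 780 and 762 of all tested genes were. Zfpm2, a zinc finger cofactor that binds GATA factors, had 100, 100 and 92 counts in the control and 13, 50 and 31 counts in the IDPN-4wk libraries. The groups were far apart, and the level fell from 6.65 ± 0.293 to 1.84 ± 0.834 CPM (± SD, n = 3 each), a log2-Fold change of -1.83 with an SE of 0.32 (edgeR Padj 0.00303), to 27.6% of control. Eya4, a coactivator of homeodomain partners such as Six4 whose mutations cause hearing loss, was at 12.9, 11.1 and 11.7 CPM in control and 7.91, 7.27 and 7.40 CPM in IDPN-4wk libraries. It fell without overlap (log2-Fold change -0.66 ± 0.16 SE, edgeR Padj 0.0140), while Six4 did not pass the test. The groups of Eya1, Eya2 and Eya3 overlapped (fold change 0.862, 0.896 and 1.07, edgeR Padj 0.122, 0.604 and 0.549). Those of Zfpm1, the relative of Zfpm2, overlapped too (fold change 1.17, edgeR Padj 0.571).

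The list also held genes of the LIM system, in which LIM-homeodomain factors bind Ldb proteins and LIM-only (Lmo) proteins compete for them. Isl1, a LIM-homeodomain factor of the otic sensory and neural lineage, was at 101, 91.4 and 102 CPM in the control and 63.5, 53.2 and 68.3 CPM in the IDPN-4wk libraries. All IDPN-4wk libraries were lower (log2-Fold change -0.67 ± 0.10 SE, edgeR Padj 0.000984). Ldb2 fell from 13.3 ± 1.85 to 7.73 ± 1.09 CPM (± SD, n = 3 each), a log2-Fold change of -0.79 (edgeR Padj 0.0104). Lmo3 fell from 22, 12 and 27 counts to 6, 5 and 2 counts (-2.34, SE 0.56, edgeR Padj 0.0145). Ldb1 was higher, from 10.8 ± 2.61 to 16.6 ± 1.04 CPM (± SD, n = 3 each), or 0.61 on the log2 scale (edgeR Padj 0.0319). The other LIM genes of the list did not pass both thresholds: Lmo1 was at -0.53 on the log2 scale (edgeR Padj 0.0160), Lmo2, Lmo4 and Lmx1a had a Padj over 0.05, and Lmx1b was not tested. The part of the HC and supporting cell markers given above in these differences was not tested. Zfpm2 and Ldb2 passed both thresholds whichever library was left out, and Zfpm2 alone passed glmTreat (Padj 0.0238). Ldb1 no longer passed without control 1, control 2, IDPN-4wk 1 or IDPN-4wk 2 (edgeR Padj 0.0947, 0.103, 0.0840 and 0.103), Lmo3 without control 3 or IDPN-4wk 2 (0.0715 and 0.0560), Eya4 without control 1 (0.0535), and Isl1 without IDPN-4wk 2, where its log2-Fold change was -0.58. Without IDPN-4wk 2, the number of changed cofactors was 3.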

How the data were processed

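RNA was reverse transcribed with an oligo-dT primer (SMART-seq2, which does not keep the strand), amplified with 8 cycles and, as libraries, 12 cycles. The authors mapped reads to Rnor6.0 with STAR and estimated counts per gene with RSEM (STAR 2.5.3a and RSEM 1.3.0 in the submitters' processing notes). The deposited expected counts were whole numbers, so that rounding changed 0 values. RSEM divides reads shared by close paralogs, and reads of genes overlapping on opposite strands were not separated. Transcript lengths were not used, so levels are compared within a gene only.

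Low counts were removed with filterByExpr at its minimum count of 10 and minimum total of 15, which kept 14352 genes. Libraries were scaled with TMM and compared by group with edgeR 4.0.16 (R 4.3.3), with Benjamini-Hochberg adjustment over all genes tested. Intervals use the SE from the quasi F statistic. The pipeline was tested on simulated data. Alternatives were DESeq2 1.42.0, other scalings, no filter, Padj alone, glmTreat and leaving out each library. Named members were those that changed, those with a Padj under 0.05, the one with the highest mean CPM in each family, the otic list, neighbours of a changed member, and those at 3 counts or fewer in 1 group only; others were named after their values were seen. Some of these members, and a marker left out of its lists, are not reported here, though members not named remain in the counts. The members and lists were chosen with earlier results of these data known. Gene order came from RefSeq (GRCr8). Intervals and floors cover counting error or the spread between these 3 animals per group only.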

Additional observations from a re-analysis of the deposited data

How the results depend on the processing

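The 3 changed members became 2 with DESeq2 or its size factors, 8 with Padj alone and 0 with glmTreat; from 1 to 4 changed without a single library. Over all genes, 1394 became 2778 with Padj alone, 453 with glmTreat and 1085 to 1581 without a library. The 6 changed cofactors became 4 with library size alone (3 lower and 1 higher), 1 with glmTreat and 3 to 8 without a library. With library size alone, the median was 0.13 over the tested genes (0.02 with TMM) and 0.08 over the members (-0.03 with TMM), and Meis2 (0.0545), Msx2 (0.0543) and Six5 (0.0642) turned from below to above 0. Leaving out a library moved Hmx2 from -0.211 to 0.15, Six5 from -0.20 to 0.190, Irx3 from -0.45 to 0.0592, Sox6 from -0.0189 to 0.13, Tbx19 from -0.35 to 0.0097, Six2 from -0.0064 to 0.34 and Tbx3 from -0.0411 to 0.091, across 0 in each. The cause was not tested. Of 546 values recomputed for single members, 510 kept their direction and their call by both thresholds together; Padj taken alone moved to the other side of 0.05 in 42. Each library is a different animal and the labels pair none of them, so no paired analysis was made. The animal codes in the sample titles share a prefix among the 3 IDPN-4wk rats and not with the controls; what it marks is not stated, and it cannot be told apart from treatment. All libraries carry the same batch label. Members with few counts have wide intervals, and leaving out a library leaves 2 animals in its group.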
